A study of Mus musculus with 151 samples.

Results

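P14_WT IHCs are inner hair cells (IHCs) picked by hand from the cochleae of wild-type mice at postnatal day 14. They are the 55 cells whose columns in the deposited counts begin with that name, 36.4% of the cells in the series, and no measured value was used to choose them. Every mouse was C57BL/6 and carried vGlut3-P2A-iCreER/+ and Ai9/+, so the wild-type cells carry a Cre driver and a Tdtomato reporter too. The Cre is expressed from the *Slc17a8* (vGlut3) locus and was switched on with tamoxifen in newborn mice, and only Tdtomato+ cells were picked. The other cells are 50 P30_WT IHCs of the same genotype at postnatal day 30 and 46 P14_iOHCs, induced outer hair cells from mice that also carried Tbx2 flox/-. The P14_iOHCs were picked for a smaller cell size than the IHCs that kept their fate, so the choice favoured converted cells. Each library holds the RNA of 1 cell amplified by Smart-Seq, and the labels tie no cell to a mouse. Each group is therefore 1 sample, cells are not replicates of it, and no test between groups was possible. Values are given as mean ± SD over cells, which describes the cells and is not an error of the group.

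IHCs are the sensory cells that report sound to the brain. Hair bundles of actin-filled stereocilia open mechanotransduction channels, calcium enters at ribbon synapses, and glutamate loaded into vesicles by vGlut3 is released in an otoferlin-dependent step onto spiral ganglion neurons. Outer hair cells (OHCs) instead amplify sound with the motor protein prestin (*Slc26a5*), and postnatal day 14 falls just after the onset of hearing in mice, when IHCs are close to mature.

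The total count per P14_WT IHC ranged from 4326416 to 22622030, with a median of 15633949, and 7396 to 10153 genes per cell had a count (8754 ± 543, SD, n = 55 cells). Counts were divided by the total of the cell and multiplied by 1000000 (CPM). A count of 3, taken as the floor, was 0.133 to 0.693 CPM, depending on the cell. The totals left a gap between 10267217 and 11814928. Below it lay 16 cells, the ones numbered 1 to 16 in the labels and called the lower set here, and above it the other 39, the upper set. What set them apart is not given in the sources used here. In 5 cells (numbers 3, 4, 15, 25 and 37) the total, the detected genes or the mitochondrial share lay over 3 median absolute deviations from the median, and their mitochondrial shares ran from 9.79% in cell 25 to 21.9% in cell 4. No 2 libraries were identical among 1485 pairs. The rank correlation between 2 cells over genes ranged from 0.333 to 0.636, and cell 4 had the lowest median, 0.421.

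*Calm2* was among the most abundant transcripts of the P14_WT IHCs, while *Calm3*, a gene for the same protein, calmodulin, was low. The first 120 coding bases of the 2 genes are shown to make clear which gene a read came from. They are the 5′ to 3′ coding strand from the start codon, read from the GENCODE M21 transcripts on GRCm38. Capitals mark the 18 bases that differ between the 2 genes. The coding sequences span chr17:87434027-87446795 on the minus strand (*Calm2*) and chr7:16916948-16923843 on the minus strand (*Calm3*), each in 6 coding exons.
Calm2: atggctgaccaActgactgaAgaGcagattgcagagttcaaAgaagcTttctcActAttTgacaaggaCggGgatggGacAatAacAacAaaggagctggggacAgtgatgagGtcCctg
Calm3: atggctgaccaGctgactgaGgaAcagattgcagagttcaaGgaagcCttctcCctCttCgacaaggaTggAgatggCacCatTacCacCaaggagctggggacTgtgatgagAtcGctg
Of the 450 coding bases, 78 differed between the 2 genes, 74 of them at codon position 3, 4 at position 1 and 0 at position 2. They were identical at 82.7% of coding bases, and the longest run that their transcripts shared was 17 bases.

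*Calm2* had 18865 ± 4975 CPM (SD, n = 55 cells; lowest 6030, median 19449, highest 27492). *Calm3* stood at 232 ± 90.2 CPM (lowest 107, median 220, highest 589), so every cell had more *Calm2* than *Calm3*, although a CPM also depends on transcript length. Per length, in TPM (transcripts scaled to 1000000 per cell, computed here from merged exon lengths), *Calm2* was at 31590 and *Calm3* at 233. Across cells the levels of the 2 genes were close to unrelated (Spearman rho -0.08, n = 55 cells).

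*Calb2*, for the calcium buffer calretinin, had 14956 ± 3923 CPM. *Skp1a*, a subunit of SCF ubiquitin ligases, had 11991 ± 3209 CPM, and *Fbxo2*, an F-box protein that recruits glycoproteins to such a ligase, had 5423 ± 1035 CPM (lowest 3721, highest 7361). Other genes in the 20 highest outside the mitochondrial genome were *Ubb* for ubiquitin (4502 CPM), the chaperones *Hsp90aa1* (3444 CPM) and *Hspa8* (2969 CPM), the iron store *Fth1* (5491 CPM), the glutathione peroxidase *Gpx2* (3882 CPM), the selenoprotein *Selenow* (3893 CPM) and *Acbd7* (3552 CPM). Of genes known for a role in hair cells, *Cib2*, a subunit of the transduction channel complex, had 4499 ± 894 CPM, *Otof* had 3657 ± 925 CPM, and *Cabp2*, which tunes the synaptic calcium channel, had 2520 ± 526 CPM. The 20 also held the ribosomal RNA gene CT010467.1 (10064 CPM), the nuclear RNA *Malat1* (6038 CPM), *Fcrlb* and *Tspan13* (both 2842 CPM) and *Gm30191* (2572 CPM). All 20 had counts in every cell.

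The 10 genes with the highest means, mitochondrial ones included, took 13.5 ± 2.11% of the counts, the first 100 took 30.3% and the first 500 took 49.6%. Of 23843 genes with a count in at least 1 cell, 13948 had a mean of at least 1 CPM, 3699 of at least 50 CPM (15.5%) and 86 of at least 1000 CPM. The 83 cytosolic ribosomal protein genes together took 1.68 ± 0.234% of the counts, 75 of them had a mean of at least 50 CPM, and their median was 184 CPM.

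The genes of the mitochondrial genome took 6.54 ± 3.24% of the counts, from 2.03% to 21.9% between cells. The share was 9.13% on average in the lower set and 5.48% in the upper. The highest were the ribosomal RNA *mt-Rnr2* (14896 CPM), *mt-Cytb* (13202 CPM), *mt-Nd1* (10698 CPM) and *mt-Co1* (9163 CPM). In contrast, *mt-Co2* (79.5 CPM), *mt-Atp6* (82.2 CPM) and *mt-Co3* (97.5 CPM) were low. These 3 share long identical stretches with annotated pseudogenes, namely 681 bases of *mt-Co2* with *Gm28661*, 678 bases of *mt-Atp6* with *Gm10925* and 783 bases of *mt-Co3* with *Gm28437*. *mt-Co1* shares a run of 479 bases with *Gm29216*. How reads with several alignments were counted is not given in the sources used here, so the levels of these 4 genes and of their pseudogenes are uncertain.

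The IHC label was checked against 5 markers. *Calb2* (chr8:110137502-110168210, minus strand, GRCm38) ranged from 6371 to 23070 CPM with a median of 15753. *Otof* (chr5:30367062-30461932, minus strand), for otoferlin, ranged from 2168 to 6115 CPM with a median of 3469. *Slc17a8* (chr10:89574020-89621253, minus strand) was at 1230 ± 317 CPM (lowest 470, median 1191, highest 2138), and it is the locus that carries the Cre. All 55 cells thus held these 3 markers, and no cell was near the floor.

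*Tbx2*, a transcription factor (chr11:85832551-85841948, plus strand), had 260 ± 127 CPM, with a lowest value of 49.5, a median of 240 and a highest of 754. Among the 15 hair cell transcription factors on the list, only *Pou4f3*, at 591 ± 208 CPM, was higher in mean CPM. *Fgf8*, a secreted growth factor that IHCs send to neighbouring pillar cells during development (chr19:45736798-45742915, minus strand), was the least even of the 5 markers, at 134 ± 115 CPM (lowest 0, median 97.8, highest 450). It had a count in 50 of 55 cells (90.9%, exact 95% interval 80.05 to 97.0%). The interval treats the 55 cells as independent draws, although they form 1 sample and the labels tie no cell to a mouse. All 5 markers had a mean of at least 50 CPM and 4 of 5 had a count in every cell.

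**Figure D1:**
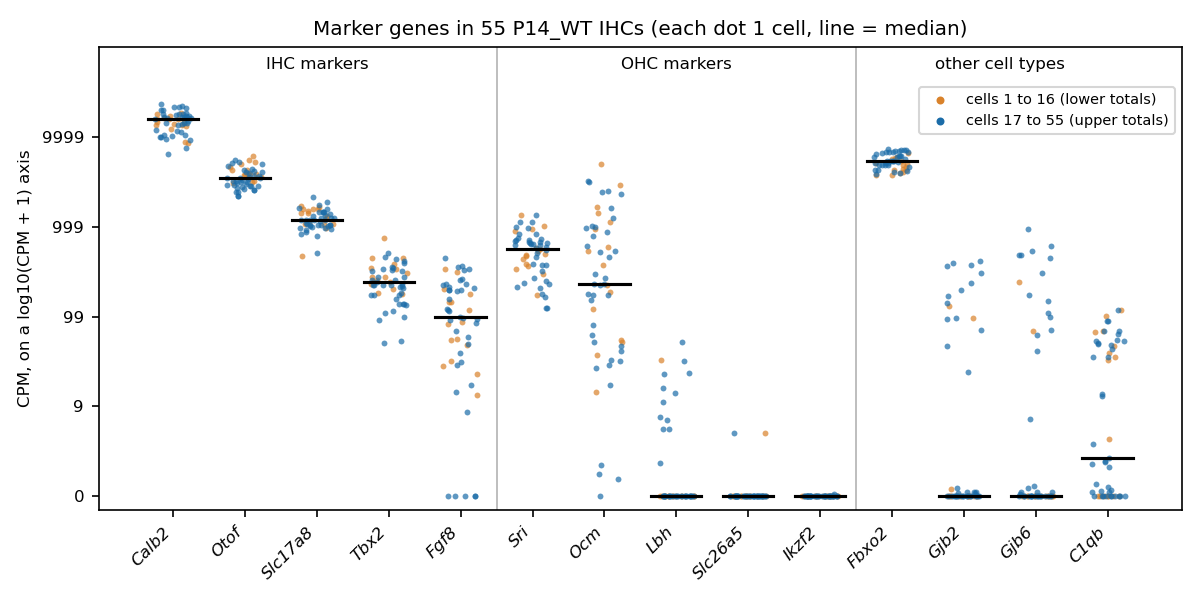
Marker genes in the 55 P14_WT IHCs, with CPM on a log10(CPM + 1) axis. Each dot is 1 cell, orange for cells 1 to 16 and blue for cells 17 to 55, and the line is the median of the 55 cells. *Calb2*, *Otof* and *Slc17a8* form tight bands with medians of 15753, 3469 and 1191 CPM, *Ocm* spreads from 0 to 5007 CPM, and *Slc26a5* and *Ikzf2* lie at or near 0.

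The defining OHC markers were at or near 0. *Slc26a5* had a count in 2 of 55 cells, with a highest value of 4.01 CPM. *Ikzf2*, the regulator Helios, had a single count in 1 cell, and *Bcl11b* and *Insm1* had no count in 55 cells, which allows a share of cells with a count of up to 5.45% (3 of 55) and does not limit the share that expresses the gene. Neither *Bcl11b* nor *Insm1* reached a mean of 5 CPM in the P14_iOHCs, so their absence does not set the P14_WT IHCs apart from those cells. *Lbh* had a count in 13 cells (4.00 ± 9.94 CPM, highest 51.1). The other 2 genes of the OHC list were well detected, *Sri* for sorcin in every cell (571 ± 300 CPM, lowest 123, highest 1353) and *Ocm*, for the calcium buffer oncomodulin, in 54 cells (744 ± 1046 CPM). The spread of *Ocm* is described with the variable genes.

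Markers of other cell types were low, with a few exceptions. Of the 18 supporting cell markers, 3 had a mean of at least 50 CPM, namely *Fbxo2*, *Gjb6* (87.6 CPM) and *Gjb2* (57.2 CPM), the last 2 for gap junction connexins, and only *Fbxo2* was in all cells. The sum of the other 17 ranged from 0 to 1932 CPM per cell with a median of 39.97 CPM. The 7 glial markers summed to 0 to 120 CPM (median 0), the 8 fibroblast and mesenchymal markers to 0 to 771 CPM (median 20.3), the 5 blood markers to 0 to 257 CPM (median 0) and the 8 markers of the stria vascularis to 0 to 70.4 CPM (median 0.128). The 7 immune markers summed to 0 to 118 CPM (median 4.91), nearly all from *C1qb*, a complement subunit found in 38 cells at 26.4 ± 34.2 CPM. The general leukocyte marker *Ptprc* had a count in 3 cells, and no immune marker other than *C1qb* reached a mean of 1 CPM. The 8 neuronal markers summed to 64.0 to 673 CPM, and came from the neurofilament genes *Nefl* (154 ± 100.7 CPM) and *Nefm* (102 ± 74.1 CPM), which were in every cell. Fewer cells of a type and less RNA of that type cannot be told apart in such sums, and each library was meant to hold 1 cell.

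Of the 12 general hair cell genes, 9 had a mean of at least 50 CPM and 8 a count in every cell, against 15.5% and 7.65% of all genes with a count. *Pvalb*, for the calcium buffer parvalbumin, was at 2099 ± 400 CPM and *Myo6*, for an unconventional myosin, at 1585 ± 350 CPM. *Gfi1* was at 187 ± 115 CPM and *Barhl1* at 51.99 ± 54.96 CPM. *Lhx3* (34.8 CPM, 39 cells) and *Rfx3* (39.7 CPM, 52 cells) stayed under 50 CPM, and *Atoh1*, the factor that starts hair cell formation in the embryo, had a count in 1 cell. Of the 15 transcription factors listed, 7 had a mean of at least 50 CPM, among them *Eya1* (104 CPM) and *Isl1* (72.0 CPM).

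The mechanotransduction genes were led by *Cib2* and by *Lhfpl5*, which links the tip link to the channel, at 1402 ± 375 CPM. The channel subunit *Tmc1* had 510 ± 250 CPM (lowest 92.8, median 509, highest 1235). Its relative *Tmc2*, which early postnatal hair cells use, had a count in 3 cells and a median of 0. The tip link cadherins *Cdh23* (328 ± 210 CPM) and *Pcdh15* (77.5 ± 70.6 CPM) differed in level, with *Cdh23* in all cells and *Pcdh15* in 49. In all, 8 of the 10 genes had a mean of at least 50 CPM and 6 were in every cell.

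Of the 28 stereocilia genes, 20 had a mean of at least 50 CPM and 16 a count in every cell. The highest were *Ush1c* for harmonin (1101 ± 442 CPM), *Grxcr2* (822 ± 297 CPM), *Espn* for the actin bundler espin (808 ± 270 CPM) and *Myo15* (705 ± 459 CPM). *Myo3a* (269 CPM) was above its relative *Myo3b* (10.4 CPM, 20 cells). *Strc*, for the stereocilin of OHC bundle attachments, was at 25.3 ± 41.1 CPM.

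At the ribbon synapse, 12 of 23 genes had a mean of at least 50 CPM and 9 were in every cell. Besides *Otof*, *Cabp2* and *Slc17a8*, *Cacna1d*, for the pore of the calcium channel that triggers release, had 442 ± 233 CPM, and *Rims2*, an active zone protein, 258 ± 125 CPM (lowest 8.92, median 248, highest 505). *Ctbp2*, whose alternative transcript encodes the ribbon protein RIBEYE, had 87.5 ± 54.2 CPM, and the counts do not separate the 2 transcripts. *Snap25* (128 CPM) and *Vamp2* (198 CPM), for neuronal SNARE proteins, were in every cell, whereas *Stx1a* was in 12 cells and the complexin *Cplx1* in 3.

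Among 10 potassium channel genes, 5 had a mean of at least 50 CPM. *Kcna10* was the highest at 1395 ± 636 CPM, and *Kcnma1* and *Lrrc52*, for the BK channel and its auxiliary subunit, had 215 ± 100 CPM and 232 ± 150 CPM. *Kcnq1* had no count in 55 cells and *Kcnj2* a count in 2 cells. Of the efferent synapse genes, *Chrna9*, for a subunit of the cholinergic receptor of hair cells, had 151.01 ± 187 CPM (lowest 0, median 53.5, highest 606), with a count in 47 cells. Its partner *Chrna10* had 12.5 ± 23.2 CPM in 24 cells, and *Kcnn2*, for the potassium channel coupled to the receptor, was in all cells at 79.9 ± 68.2 CPM.

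The 17 calcium-binding and calcium pump genes had a median of 744 CPM, and 14 of them had a mean of at least 50 CPM. After *Calm2* and *Calb2*, the list held *Cabp2*, *Pvalb* and *S100a1* (1881 ± 834 CPM). Of the calcium pumps on the list, *Atp2a3*, of the endoplasmic reticulum, was at 1816 ± 610 CPM. The plasma membrane pumps *Atp2b1* and *Atp2b2* were at 892 ± 235 CPM and 97.9 ± 68.4 CPM. Other pump genes were not on the list. Per length, 4 buffers ordered as *Calb2* (20969 TPM), *Pvalb* (4926 TPM), *Ocm* (2478 TPM) and *Calb1* (298 TPM).

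Immediate-early and dissociation genes were measured because cells were dissociated with enzymes before picking. Of 25 genes, 10 had a mean of at least 50 CPM, led by *Jun* (784 ± 452 CPM), *Egr1* (312 ± 348 CPM), *Btg2* (274 ± 174 CPM) and *Fos* (229 ± 280 CPM). Their sum was 2194 ± 1101 CPM per cell, from 265 to 5430 CPM. Of 14 circadian clock genes, 8 had a mean of at least 50 CPM, with *Nr1d1* at 176 ± 106 CPM.

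A count in all 55 cells was found for 1824 genes (7.65% of those with a count). Detection depends on depth, so every cell was thinned to 4326416 counts, the lowest total of the series, and 1642 genes (6.89%) then kept a count in all cells. Without the 5 cells that stood apart, 2035 genes had a count in each of the other cells. Of the 3699 genes that reached 50 CPM, 1666 (45%) were in all cells as deposited and 1542 (41.7%) after thinning. The other 2033 missed at least 1 cell, and 158 genes under 50 CPM were in every cell. Of the ribosomal protein genes 68 of 83 were in all cells. At the other end, 4 genes reached a mean of 50 CPM with a count in 25 cells or fewer, namely *Gsn* (25 cells), *Gjb2* and *Gjb6* (both 23) and *Cd9* (20).

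The spread between cells was measured as the coefficient of variation (CV), the SD over the mean of CPM, among the 3699 genes that reached a mean of 50 CPM. The median CV was 0.704, with quartiles of 0.526 and 0.882. It was over 1 for 442 genes and over 2 for 8, and under 0.25 for 35. The most even genes included *Tpt1* (CV 0.168), *Selenow* (0.178), *Fth1* (0.186), *Pvalb* (0.190), *Fbxo2* (0.191), *Eif1* (0.194), *Myl6* (0.198), *Cib2* (0.199) and *Chchd2* (0.201). The CV of *Slc17a8*, *Otof* and *Calb2* lay between 0.25 and 0.26.

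**Figure D2:**
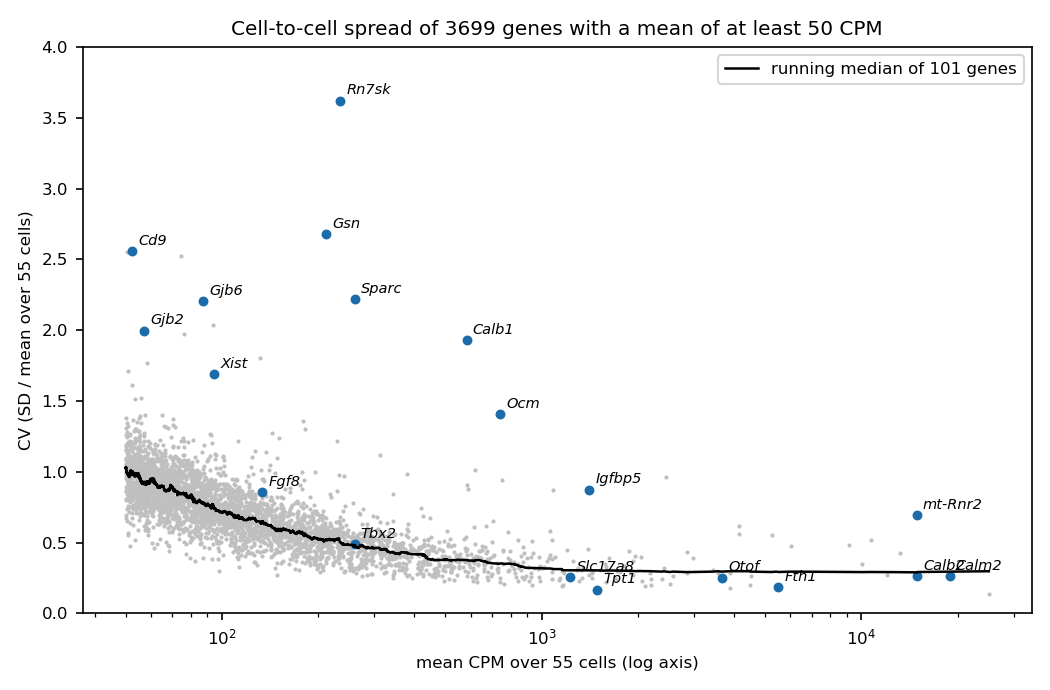
CV over 55 P14_WT IHCs against the mean CPM (log axis) of the 3699 genes at 50 CPM or more, where each grey dot is a gene and the line is the running median over genes of like mean. *Tpt1* lies near the bottom at 0.168, the IHC markers *Calb2*, *Otof* and *Slc17a8* lie at 0.25 to 0.26, and *Ocm*, *Calb1*, *Gsn*, *Sparc* and *Rn7sk* lie far above the line.

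*Ocm* and *Calb1* were the calcium buffers among the 20 most variable genes. By CV *Calb1* ranked 11 and *Ocm* 19, and *Ocm* was at rank 32 with TMM, 29 with median-of-ratios factors, 27 with totals without mitochondrial genes, 56 in the lower set alone and 764 with a floor of 20 CPM, outside the 20 in each. *Ocm* (chr5:144019804-144026670, minus strand) ran from 0 to 5007 CPM with a median of 229 CPM and a CV of 1.41. It was at 1000 CPM or more in 13 cells, at 100 CPM or more in 37 and at 10 CPM or more in 51, so its values spread over the whole range. *Calb1*, for calbindin (chr4:15881264-15908064, plus strand), had 583 ± 1124 CPM with a median of 45.8 and a highest of 5821 CPM, and a CV of 1.93. It was at 1000 CPM or more in 11 cells and had a count in 41. Set against genes of like mean, the CV of *Calb1* was 5.12 times and that of *Ocm* 3.99 times the running median. Neither rested on a single cell. The CV was 1.79 for *Calb1* without cell 7 and 1.32 for *Ocm* without cell 1, the highest cells. The longest run shared with a relative was 15 bases for *Ocm* with *Pvalb* and 12 bases for *Calb1* with *Calb2*.

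A second group of variable genes had a median at or near 0 and high values in a part of the cells. They were at 10 CPM or more in 14 (*Cd9*) to 18 (*Sparc*) of 55 cells. *Gsn*, for the actin-severing protein gelsolin, had a median of 0 and a highest value of 3446 CPM (CV 2.68). *Sparc*, a matricellular protein, had 31 cells with a count and a highest of 3083 CPM (CV 2.22). *Cd9* (CV 2.56), *Gjb6* (2.21) and *Gjb2* (2.00) followed the same form. These genes were low in cells 1 to 16, where *Gsn* averaged 18.3 CPM and *Sparc* 20.4 CPM, against 291 CPM and 360 CPM in cells 17 to 55. The summed supporting cell markers without *Fbxo2* averaged 68.1 CPM in the former and 328 CPM in the latter, and their part in these values was not tested.

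Other values of the CV leaned on 1 cell. Cell 46 held 48.4% of the summed CPM of *Rn7sk*, the 7SK small nuclear RNA, and the CV fell from 3.62 to 1.64 without it. The CV of *Ankfy1* went from 1.77 to 1.15 without cell 25, that of *Adamts1* from 2.53 to 1.72 without cell 15, that of *Vim* from 2.55 to 1.93 without cell 53, that of *Pdcd7* from 1.61 to 1.17 without cell 4 and that of *Ist1* from 1.40 to 1.12 without cell 4. Cells 4, 15 and 25 are among the 5 that stood apart. Other genes of the 20 differed between the sets of totals. *Txnip*, an inhibitor of thioredoxin, averaged 266 CPM in cells 1 to 16 and 22.6 CPM in the others, and the pseudogene *Gm15459* averaged 218 and 17.96 CPM. The remaining genes were *Spon2* (CV 1.80), *Ap1m1* (1.71) and *Scd3* (1.52), which shares a run of 185 bases with *Scd1*.

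*Xist* (CV 1.69), the RNA of the inactive X chromosome, and *Ddx3y* (1.51), a Y-linked gene, split the cells by the sex of the mouse. In 21 cells only *Xist* was above 3 counts, in 30 cells only the Y-linked genes were, and in 4 cells both were, while no cell lacked both. In each of the 4 cells one side was small, with 5 and 18 *Xist* counts beside 3050 and 2762 Y-linked counts, and 4 Y-linked counts beside 2410 and 739 *Xist* counts. The 55 cells therefore came from at least 1 male and 1 female mouse. The *Xist* cells were 10 of the 16 in the lower set and 11 of the 39 in the upper.

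Covariation was described with Spearman's rho between all pairs of the 3699 genes, without p-values, since cells share mice, libraries and composition that the labels do not resolve. Of 6839451 pairs, 2921 (0.0427%) had a rho of at least 0.5 and 1925 a rho of at most -0.5. The highest was 0.92, for *mt-Atp6* with *mt-Co3*, and 17 of the 20 highest pairs joined 2 mitochondrial genes. The other 3 were *Gjb6* with *Gsn* (0.86), *Gjb2* with *Sparc* (0.85) and *Ubb* with *Ubb-ps* (0.84), the last of which joins a gene and its pseudogene. Average linkage of 1 minus rho at a height of 0.5 gave 10 clusters of 5 genes or more, with 84 genes in all.

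**Figure D3:**
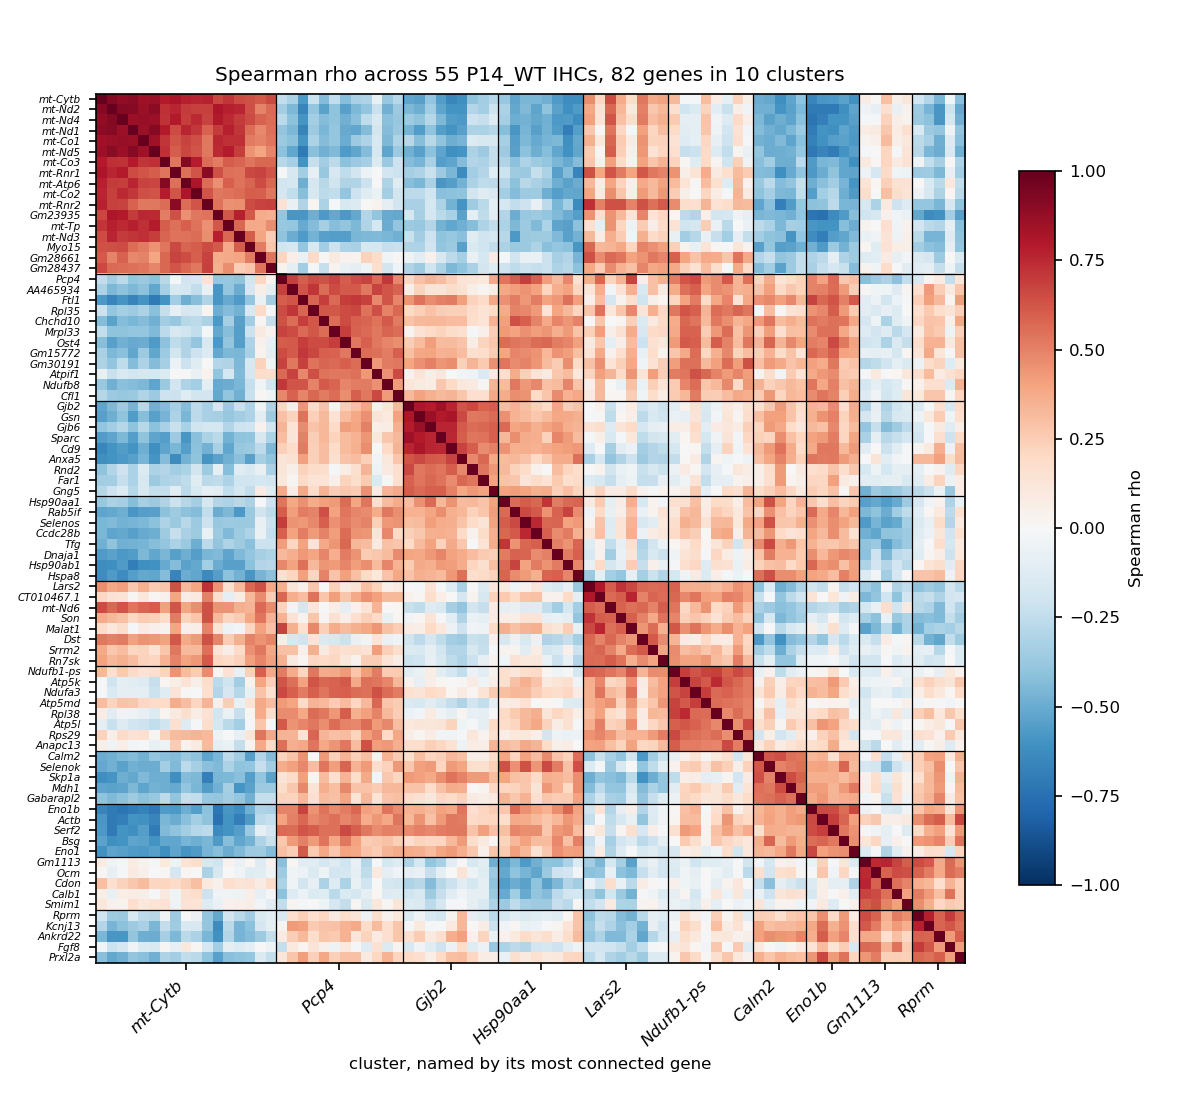
Spearman rho across 55 P14_WT IHCs between 82 of the 84 genes of the 10 clusters, where red marks positive and blue negative values and black lines separate the clusters, each named at the bottom by its most connected gene. The mitochondrial cluster (*mt-Cytb*, 17 genes) has the highest mean rho, 0.652, and the clusters of *Gm1113* (with *Ocm* and *Calb1*) and *Rprm* (with *Fgf8* and *Kcnj13*) are positive toward each other.

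*Gm1113*, *Ocm*, *Cdon*, *Calb1* and *Smim1* formed 1 cluster, with a mean rho of 0.614. *Gm1113* had 587 ± 514 CPM and *Cdon*, a cell surface receptor that binds hedgehog ligands, 119 ± 112 CPM. The mean rho was 0.687 in cells 1 to 16 alone and 0.576 in cells 17 to 55 alone. The mean rank of the cluster was nearly unrelated to the total count (rho -0.09) and to the mitochondrial share (rho 0.05), and it was at -0.31 with the summed supporting cell markers. *Ocm* and *Calb1* had a rho of 0.65 (Pearson's r of log2(CPM + 1) 0.65), of 0.72 and 0.56 in the lower and the upper set, and of 0.62 when the 2 cells most distant from the median *Ocm* were left out.

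A second cluster held *Rprm*, *Kcnj13*, *Ankrd22*, *Fgf8* and *Prxl2a*, with a mean rho of 0.583. *Rprm*, known as an inhibitor of the cell cycle, had 585 ± 529 CPM and *Kcnj13*, for an inward rectifier potassium channel, 618 ± 626 CPM, and their rho was 0.78. *Fgf8* had its highest rho with *Rprm* (0.70, and 0.40 and 0.83 in the lower and the upper set). Then came *Kcnj13* (0.62, and 0.27 and 0.73 within the sets) and *Gm1113* (0.57, and 0.28 and 0.67). *Ocm* (0.56, and 0.47 and 0.63) and *Calb1* (0.55, and 0.63 and 0.56) followed. The 2 clusters also moved together, with a rho of 0.57 between their mean ranks, 0.79 in the lower set and 0.73 in the upper. The cluster of *Rprm* had a rho of 0.42 with the total count, and *Kcnj13* averaged 221 CPM in cells 1 to 16 and 781 CPM in the others.

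*Igfbp5*, for a binding protein of insulin-like growth factors, had 1406 ± 1229 CPM (lowest 0, median 1138, highest 4414), with a rho of -0.66 with the *Ocm* cluster and of -0.60 with the *Rprm* cluster. *Kcnab1*, for a potassium channel beta subunit, had 312 ± 201 CPM, with a rho of -0.60 and -0.62 with the 2 clusters. Both genes were chosen after their values were seen. *Ocm* with *Igfbp5* had a rho of -0.58 and a lower Pearson's r of -0.35.

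**Figure D4:**
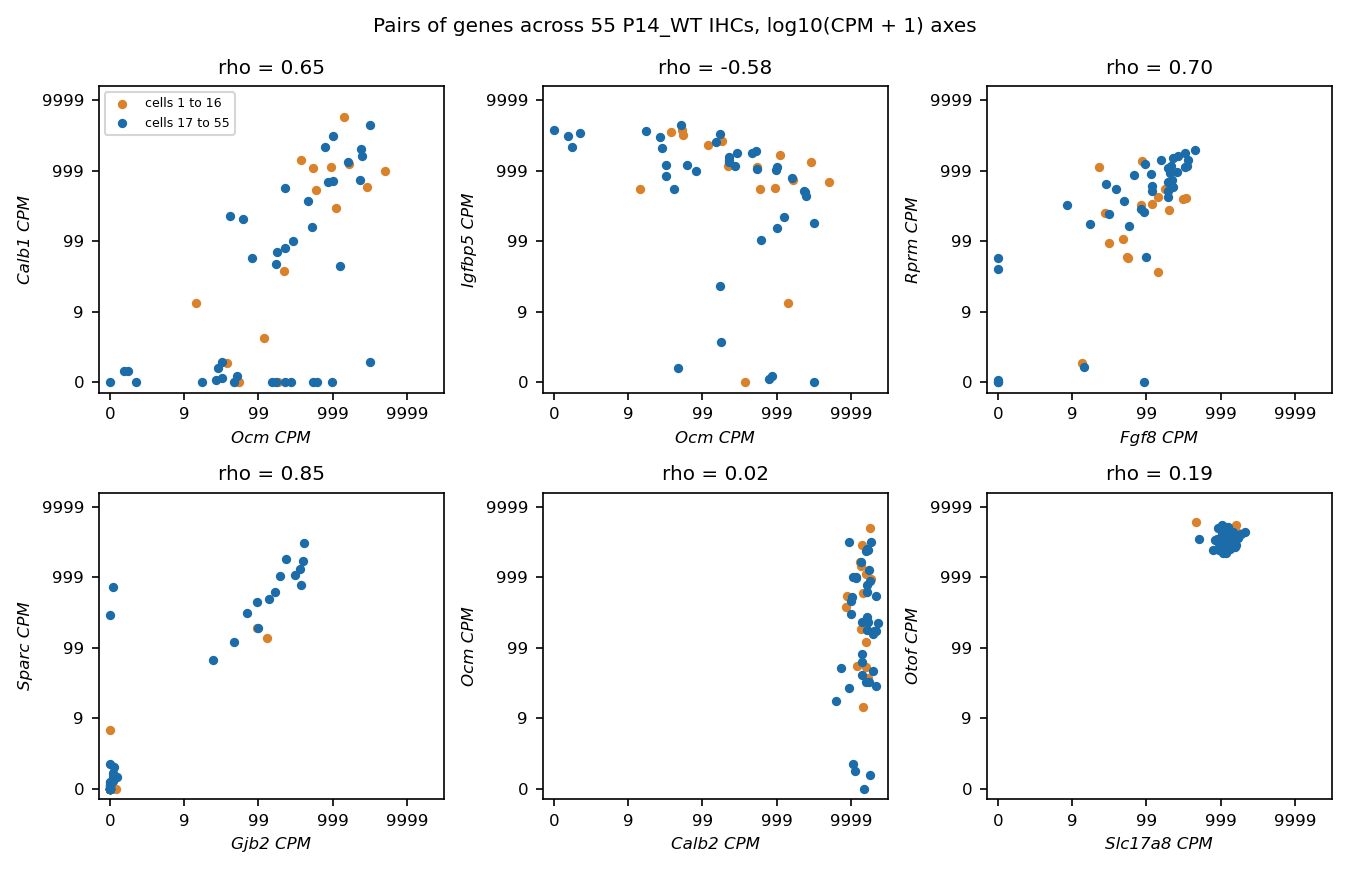
Pairs of genes in the 55 P14_WT IHCs on log10(CPM + 1) axes, each dot 1 cell, orange for cells 1 to 16 and blue for cells 17 to 55. *Ocm* rises with *Calb1* (rho 0.65) and falls with *Igfbp5* (-0.58), and *Fgf8* rises with *Rprm* (0.70). *Gjb2* and *Sparc* tend to be high in the same cells (0.85). *Calb2* with *Ocm* (0.02) and *Slc17a8* with *Otof* (0.19) show little relation.

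*Gjb2*, *Gsn*, *Gjb6*, *Sparc*, *Cd9*, *Anxa5*, *Rnd2*, *Far1* and *Gng5* formed a cluster with a mean rho of 0.622, 0.477 in the lower set and 0.652 in the upper. Its mean rank had a rho of 0.70 with the summed supporting cell markers, of which *Gjb2* and *Gjb6* are members. *Anxa5*, for annexin A5, was in every cell at 1087 ± 950 CPM. Of the 18 supporting cell markers, 14 had a mean of at least 1 CPM. *Epyc* had a count in 3 cells (highest 508 CPM, in cell 55), *Otog* in 10 (highest 389 CPM, in cell 45) and *Lgr5* in 17, and *Prox1* had none.

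The largest cluster held 17 genes, with a mean rho of 0.652, and 13 of them are in the mitochondrial genome. The others were the pseudogenes *Gm28661* and *Gm28437*, *Gm23935*, which is annotated as a miRNA, and *Myo15*, the only hair cell gene in it. Its mean rank had a rho of 0.97 with the mitochondrial share and of -0.68 with the total count. A cluster of 8 genes (*Lars2*, CT010467.1, *mt-Nd6*, *Son*, *Malat1*, *Dst*, *Srrm2* and *Rn7sk*) had a mean rho of 0.562 and a median merged exon length of 9036 bases, against 4448 bases over all genes that reached 50 CPM. Another cluster of 8 (*Ndufb1-ps*, *Atp5k*, *Ndufa3*, *Atp5md*, *Rpl38*, *Atp5l*, *Rps29* and *Anapc13*) had a mean rho of 0.589 and a median length of 1022 bases over the 7 genes with a length.

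*Calm2*, *Selenok*, *Skp1a*, *Mdh1* and *Gabarapl2* were in a cluster with a mean rho of 0.560. It ran against the mitochondrial cluster (rho -0.60, and -0.89 and -0.33 in the lower and the upper set). The chaperone and co-chaperone genes *Hsp90aa1*, *Hsp90ab1*, *Hspa8* and *Dnaja1* stood in another with *Tfg*, *Selenos*, *Rab5if* and *Ccdc28b*, whose mean rho of 0.551 was 0.509 in the lower set and 0.308 in the upper. It ran against the *Ocm* cluster, with a rho of -0.60 over all cells, -0.56 in the lower set and -0.61 in the upper. *Hsp90aa1* and *Hsp90ab1* share at most 33 bases in a run.

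In a pair of clusters the mean rho was much lower within the sets than over all cells. The cluster of 13 genes led by *Pcp4*, with *Ftl1*, *Rpl35* and *Chchd10*, had a mean rho of 0.594 over all cells but 0.198 and 0.108 within the sets. The cluster of *Eno1b*, *Actb*, *Serf2*, *Bsg* and *Eno1* had 0.568 over all cells and 0.081 and 0.291 within them, and *Eno1* and *Eno1b* share a run of 835 bases.

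Between the IHC markers the rho was low or negative. *Slc17a8* with *Otof* had a rho of 0.19, *Slc17a8* with *Tbx2* 0.02, *Otof* with *Tbx2* 0.25, *Calb2* with *Fgf8* 0.09 and *Fgf8* with *Tbx2* -0.28, and *Calb2* ran against *Otof* (rho -0.42, and -0.41 and -0.37 within the sets). By the highest rho, *Slc17a8* was nearest to *Sgta* (0.53), *Arfgef1* (0.50), *B230219D22Rik* (0.49) and *Ascc3* (0.49). *Otof* was nearest to *mt-Rnr1* (0.60), *mt-Rnr2* (0.59), *mt-Cytb* (0.58), *Lrp8* (0.57) and *Pdcd6* (0.56). Near to *Calb2* were *Calm2* (0.56), *Gltp* (0.51), *Tfg* (0.49) and *Dynlt3* (0.48). *Tbx2* was nearest to *Synrg* (0.58, and 0.62 and 0.50 within the sets), *Lrrc10b* (0.53, but 0.05 in the lower set) and *Fndc5* (0.44). After them came *mt-Nd2* (0.43, but -0.003 in the lower set) and *mt-Nd5* (0.42, but 0.01 in the lower set). Each nearest gene was picked for a high rho among all genes that reached a mean of 50 CPM. Such a choice can give high values by itself, and whether the nearest genes exceed that was not tested. Over all pairs of those genes the 99th percentile of rho was 0.348. The values are descriptions over 55 cells of 1 group.

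The P14_WT IHCs were set beside the P30_WT IHCs by the ratio of mean CPM, with no test, over the 10747 genes that reached a mean of 5 CPM in either group. A mean under the floor of 3 counts was set to the floor. At a ratio over 4, 280 genes (2.61%) were higher and 232 (2.16%) lower in the P14_WT IHCs, and 33 and 18 of them were detected in 80% or more of the cells where they were higher. By medians in place of means, 86.3% of the passing genes were higher in the P14_WT IHCs, against 54.7% by means. The mitochondrial share was 9.35 ± 4.94% in the P30_WT IHCs and 6.54 ± 3.24% in the P14_WT IHCs, and its part was not tested. Of the IHC markers, 4 of 5 lay within 4-fold. *Slc17a8* had 1344 CPM, *Otof* 3704 CPM, *Calb2* 13666 CPM and *Tbx2* 193 CPM at day 30.

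*Fgf8* was the exception. It averaged 134 ± 115 CPM in the P14_WT IHCs and 0.691 ± 3.71 CPM in the P30_WT IHCs, a 194-fold ratio, and it had a count in 50 of 55 and in 5 of 50 cells. Of the other genes of its cluster, *Kcnj13* had 618 CPM against 2.01 CPM (308-fold, 55 and 3 cells), and *Rprm* had 585 CPM against 4.25 CPM (138-fold, 52 and 9 cells), while *Ankrd22* (log2 ratio 1.42) and *Prxl2a* (0.04) lay within 4-fold. *Calb1* had 583 CPM in 41 cells against 2.51 CPM in 6 cells (log2 ratio 7.86), whereas *Ocm*, which covaried with it at day 14, had 744 and 891 CPM (log2 ratio -0.26).

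The size of these ratios rested on single P30_WT IHCs, although each stayed over 4-fold. Cell 16 held 94.2% of the summed *Kcnj13* CPM at day 30, and the ratio was at least 2293-fold without it. The ratio was at least 493-fold for *Fgf8* without cell 5 and at least 2118-fold for *Calb1* without cell 24. For *Kcnj13*, *Fgf8* and *Calb1* the day 30 mean then lay under the floor and was set to it. The ratio of *Rprm* was 362-fold without cell 4. A mean under the floor was also set to it in the ratios within the sets. Within the lower and the upper set the log2 ratios were 6.27 and 9.64 for *Fgf8*, 5.75 and 11.88 for *Kcnj13*, 5.29 and 11.91 for *Rprm* and 11.06 and 6.75 for *Calb1*.

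The rest of the 10 largest ratios were *Ang4*, for an angiogenin (53.4 CPM in 45 cells against no count in any of 50, at least 195-fold higher), *Adam11* (65.8 CPM in 44 cells, against a mean under the floor), the phosphate transporter *Slc34a3* (178 against 3.26 CPM, 54.5-fold), *Mycl* (42.6-fold), *Efhd2* (41.7-fold), the uncoupling protein *Ucp2* (219 against 5.39 CPM, 40.5-fold) and the actin nucleator *Lmod3* (306 against 21.2 CPM, 14.5-fold). Here too 1 P30_WT IHC set the size for 3 genes, with 233-fold for *Slc34a3* without cell 1, 140-fold for *Mycl* without cell 7 and 162-fold for *Efhd2* without cell 28. Of list members, *Sri* (571 against 113 CPM, log2 ratio 2.33) and the sodium-calcium exchanger *Slc8a1* (72.6 against 12.3 CPM, log2 ratio 2.56) were higher at day 14 by over 4-fold, so 3 of the 17 calcium genes were higher and 0 lower. *Pvalb* stayed within 4-fold (2099 against 677 CPM, log2 ratio 1.63, and 2.18 by medians). Beside 2.61% higher and 2.16% lower over all genes, of 22 ribbon synapse genes compared 1 was higher (*Stx1a*, 8.25 CPM in 12 cells against 0.336 CPM in 1 cell) and 0 lower, among 8 mechanotransduction genes 0 passed in either direction, and among 27 stereocilia genes 2 were higher (among them *Myo3b*, in 20 cells) and 0 lower.

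Of the 10 well detected genes lower at day 14 with the largest ratio, *Rpsa-ps10*, *Gm8730*, *Rpl34-ps1* and *Atp6v0c-ps2* are annotated as processed pseudogenes, so their counts are uncertain. Their P30_WT IHC means sat far above the medians, as for *Rpsa-ps10* with 35.2 against 3.18 CPM. Among protein-coding genes, *Akr1cl* had 6.84 CPM in 14 cells against 58.4 CPM in 42 cells (8.53-fold), the aminopeptidase *Anpep* 5.48 against 33.4 CPM (6.09-fold) and *Fgd6*, a guanine nucleotide exchange factor, 4.296 against 31.9 CPM (7.42-fold). Without P14_WT IHC 25 the ratio of *Fgd6* was 11.6-fold. The others were *Gm36684*, *Gm38228* and *H2bc6*. The 4 pseudogenes and *Gm36684* did not pass in the lower set alone, where their log2 ratios ran from -0.21 (*Atp6v0c-ps2*) to 0.47 (*Rpl34-ps1*), so their difference lay in the upper set. Of the immediate-early and dissociation genes, 2 of 16 were lower at day 14, beside 2.16% of all genes compared. They were *Hspa1a* (7.93 against 67.8 CPM) and *Hspa1b* (27.6 against 159 CPM), and their ratios were 13.0-fold and 8.78-fold without P14_WT IHC 48. The summed list was 2194 against 3844 CPM, and the gap lay in the lower set (2041 against 5652 CPM), which held 16 of 55 P14_WT IHCs and 23 of 50 P30_WT IHCs, while the upper set had 2258 against 2304 CPM.

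**Figure D5:**
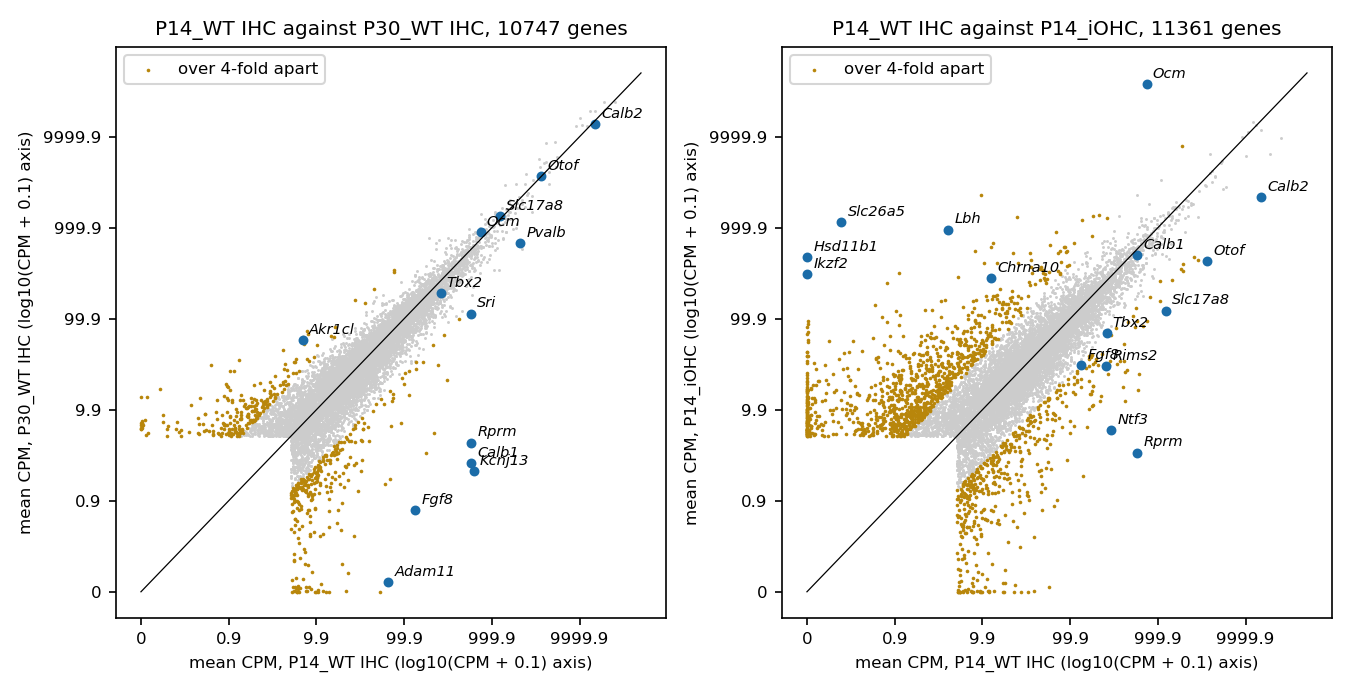
Mean CPM of the P14_WT IHCs against the P30_WT IHCs (left, 10747 genes) and the P14_iOHCs (right, 11361 genes) on log10(CPM + 0.1) axes, with genes over 4-fold apart in gold, named genes in blue and the line of equal means. *Fgf8*, *Kcnj13*, *Rprm* and *Calb1* lie far below the line on the left while *Otof*, *Slc17a8* and *Calb2* lie on it, and on the right *Slc26a5*, *Ikzf2*, *Lbh* and *Ocm* lie far above it.

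The comparison with the P14_iOHCs uses the same P14_WT IHCs, so the 2 comparisons are not independent. Over 11361 genes, 488 (4.3%) were higher and 1069 (9.41%) lower in the P14_WT IHCs by over 4-fold, and 148 and 185 of them were detected in 80% or more of the cells where they were higher. Of the passing genes, 31.3% were higher in the P14_WT IHCs by means and 61.7% by medians. The summed supporting cell markers without *Fbxo2* had a median of 931 CPM in the P14_iOHCs (0.231 to 10106 CPM) and of 39.97 CPM in the P14_WT IHCs, and 8 of 14 markers of that list compared were lower in the P14_WT IHCs. Of 21 immediate-early and dissociation genes compared, 8 were lower and 0 higher in the P14_WT IHCs. The summed list was 2194 ± 1101 CPM in the P14_WT IHCs and 3645 ± 4598 CPM in the P14_iOHCs, with medians of 1966 and 1785 CPM. The part of other cells and of dissociation in the lower genes was not tested.

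*Tbx2* itself had 260 ± 127 CPM in the P14_WT IHCs and 69.3 ± 87.4 CPM in the P14_iOHCs (lowest 0, median 41.4, highest 427), with a count in 45 of 46 cells. The ratio lay within 4-fold (log2 1.91), but past it by medians (2.54) and without the highest P14_iOHC (2.08). The counts cover the whole gene, so transcripts without the floxed exon would still count. Where the *Tbx2* counts of the P14_iOHCs came from was not tested. The other 4 markers were higher in the P14_WT IHCs by over 4-fold, with log2 ratios of 3.32 for *Slc17a8* (123 CPM in the P14_iOHCs), 3.09 for *Otof* (430 CPM), 2.80 for *Calb2* (2154 CPM) and 2.12 for *Fgf8* (30.8 CPM, and 1.52 in the lower set alone). The 5 markers summed to a median of 2059 CPM per P14_iOHC. The highest sum was 21007 CPM, above the P14_WT IHC mean of 20237 CPM, and *Calb2* reached 17827 CPM in P14_iOHC 1.

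The 10 highest ratios were led by *Grm4*, a metabotropic glutamate receptor (57.9 ± 60.8 CPM in 52 cells, against a mean under the floor in the P14_iOHCs), and *Rprm* (585 against 3.28 CPM, 179-fold). They included *Ntf3*, the neurotrophin that spiral ganglion neurons respond to (293 ± 160 CPM in 55 cells against 5.89 CPM in 3 cells, 49.7-fold), *Cubn* (142 against 1.79 CPM, 79.0-fold), *Cd96* (84.1-fold), *Syne1* (67.2-fold) and *C1ql3* (59.4-fold). The other 3 were the long non-coding RNAs *Gm36669* (27.7 CPM against no count in 46 cells, at least 125-fold higher), *1700029N11Rik* (132-fold, with a count in 1 P14_iOHC) and *Gm10605* (76.2-fold). Without 1 P14_iOHC the ratio moved by over 1.5 times for 6 of the 10. It was 183-fold for *Ntf3* (cell 1), 221-fold for *Cubn* (cell 5), 136-fold for *Cd96* (cell 18) and 227-fold for *Gm10605* (cell 28). It was at least 216-fold for *Syne1* (cell 1) and at least 109.6-fold for *C1ql3* (cell 34), whose P14_iOHC means then lay under the floor.

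Of 22 ribbon synapse genes compared, 6 were higher in the P14_WT IHCs and 1 lower, beside 4.3% higher and 9.41% lower over all genes. Besides *Slc17a8* and *Otof* they were *Rims2* (258 against 30.0 CPM), the calcium channel subunit *Cacna2d2* (12.8 against 2.53 CPM), *Cabp1* (30.2 against 5.24 CPM) and *Stx1a*, and the lower gene was the glutamate transporter *Slc1a3*, also a supporting cell marker (21.1 against 157 CPM). In the lower set alone *Cabp1* (log2 ratio 1.76) and in the upper set alone *Stx1a* (1.27) lay within 4-fold. Of 27 stereocilia genes, 6 were higher, among them *Myo3a* (269 against 24.4 CPM), *Whrn* for whirlin (223 against 14.1 CPM), *Xirp2* (518 against 107 CPM), *Espnl* and *Myo3b*, and *Strc* was lower (25.3 against 178 CPM). *Xirp2* lay within 4-fold in the lower set alone (log2 ratio 1.72). Of the mechanotransduction genes 0 of 8 passed 4-fold, and of the general hair cell genes 0 of 11.

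*Slc26a5* had a mean of 0.146 CPM in the P14_WT IHCs, under the floor, and 1146 ± 685 CPM in all 46 P14_iOHCs. *Hsd11b1*, for the enzyme that regenerates active glucocorticoid, had no count in 55 cells and 472 CPM in the P14_iOHCs, at least 1888-fold lower. *Ikzf2* had 309 CPM and *Lbh* 949 CPM in the P14_iOHCs, the latter 237-fold above the P14_WT IHCs. *Bmp3* (95.2 CPM), *Adamtsl1* (86.6 CPM), *Lrrc30* (249 CPM), *4930558C23Rik* (141 CPM), *Cachd1* (72.0 CPM) and *Ighm*, an immunoglobulin heavy chain (2305 CPM against 9.56 CPM in 8 cells), complete the 10. Without 1 P14_WT IHC the P14_iOHC mean was 775-fold higher for *Ighm* (cell 16), against 241-fold with it. It was at least 1006-fold against 346-fold for *Lrrc30* (cell 1) and at least 567-fold against 288-fold for *4930558C23Rik* (cell 2). The P14_WT IHC means of *Lrrc30* and *4930558C23Rik* then lay under the floor.

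*Ocm* reached 37457 CPM in the P14_iOHCs (log2 ratio -5.65), so its highest P14_WT IHC, at 5007 CPM, lay well under that mean. For *Calb1* the 2 groups were close by means (583 and 501 CPM, log2 ratio 0.22), but the sign depended on the summary, with -2.53 by medians and -0.11 in the upper set alone. *Kcnj13* (log2 ratio 1.40) stayed within 4-fold. *Chrna10* was lower in the P14_WT IHCs (12.5 against 278 CPM, log2 ratio -4.47) and *Chrna9* was within 4-fold (151.01 against 406 CPM).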

How the data were processed

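Counts per gene and cell were deposited by the authors as whole numbers without normalization. Per the labels and the study's methods, paired-end reads of Smart-Seq HT cDNA were aligned to mm10 (GRCm38) with HISAT2 2.1.0 and counted with HTSeq 0.10.0, and Trimmomatic 0.39, FastQC 0.11.9 and StringTie 1.3.5 are in the submitters' processing notes. The annotation release, the strand setting and the handling of multi-mapping reads are not given in the sources used here.

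The counts of 55291 genes were analysed, with groups from the labels. CPM used each cell's total over all genes. Of the genes, 53180 were matched by symbol to GENCODE M21, which gave types, positions and merged exon lengths for TPM. No test was made, since each group is 1 sample. Group ratios used mean CPM, a floor of 3 counts per library and the 4-fold threshold of the study. Intervals are exact (95%), and the limit beside a gene with no count is 3 of the 55 cells. The planned split of the totals by the largest gap of their logs set only 2 cells of the series apart, so the largest gap in counts was used, and that choice, like the CV and the ratios without a gene's highest cell and the ratios of the named genes within the sets, was made after seeing the data. The members and gene lists were chosen with earlier results of these data known. Named genes are list members, the 20 highest by mean outside the mitochondrial genome, the 20 highest and 10 lowest by CV, the 20 highest pairs, up to 10 genes of a cluster, the 5 nearest genes of each marker, and the 10 largest ratios each way among genes detected in 80% or more of the cells where they were higher. Some of these genes are not reported here. Alternatives included TMM factors (edgeR 4.0.16 in R 4.3.3) and median-of-ratios factors. The steps were tested on simulated data with the seed 20220. Python 3.11.15, numpy 2.4.6, scipy 1.17.1, pandas 2.3.3 and matplotlib 3.10.9 were used.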

Additional observations from a re-analysis of the deposited data

How the results depend on the processing

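No paired analysis was possible because no result comes from a test and the cell numbers in the labels only name cells. All values are descriptions of 1 sample per group. The 20 most abundant genes kept 14 to 20 members under the other scalings and averages, with 14 by TPM, and the genes in all cells ranged from 1507 (at least 5 counts) to 2035 (without the 5 cells that stood apart). Of the 20 most variable genes, 11 were shared when the CV was set against genes of like mean, 5 with a floor of 20 CPM, 6 with a floor of 100 CPM, 5 in the lower set alone and 12 in the upper set alone. Pairs with a rho of at least 0.5 numbered 222097 in the lower set alone (16 cells) and 8879 in the upper, and 14335 with Pearson's r of log2(CPM + 1). Pairs at or below -0.5 numbered 187107 and 7340 in the 2 sets. Fewer cells give wider chance values of rho.

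Genes higher in the P14_WT IHCs than in the P30_WT IHCs numbered 1117 by medians, 1067 with no filter, 32 at 50 CPM or more, 772 in the lower set and 432 in the upper. Those lower numbered 1133 with no filter, 14 at 50 CPM, 632 and 423 in the 2 sets. Against the P14_iOHCs, genes higher numbered 1029 by medians, 1556 with no filter, 124 at 50 CPM and 1280 in the lower set, and genes lower 640, 2236 and 218 for the first 3 of these. The share of passing genes that were higher was 54.7% against the P30_WT IHCs and 31.3% against the P14_iOHCs, and moved to 86.3% and 61.7% by medians. It was 69.6% against the P30_WT IHCs at 50 CPM and 46.6% against the P14_iOHCs in the lower set. The median log2 ratio of all genes was 0.03 and -0.08 in the 2 comparisons and 0.29 and 0.15 by medians, and lay between -0.13 and -0.04 with TMM or median-of-ratios factors. The depth put the floor of 3 counts at 0.693 CPM or less in every cell.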
